A study of Homo sapiens with 12 samples.

Results

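The block studied here is a run of neighbouring genes on human chromosome 11, from CREBZF to BIRC2, listed under the cytogenetic label 11q14 to q22 and holding the transcriptional coactivator gene YAP1. Its members were chosen because L3.6pl cells read lower than FG cells over this run in earlier work on the same arrays, so the difference between the lines is given as a description with no test. Of 45 listed genes, 43 had a probe set used here and the other 2 are not analysed here. The 43 are part of 19775 genes measured, and 1060 other measured genes lie on chromosome 11. A further 20 measured genes lie inside the same interval and are not on the list.

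Gene expression was measured on 12 Affymetrix arrays, 3 in each of 4 groups. The groups were L3.6pl cells in hypoxia, L3.6pl cells in normoxia, FG cells in hypoxia and FG cells in normoxia. Both are human pancreatic carcinoma lines grown in DMEM with foetal bovine serum from frozen stock, typically for 9 days and without passaging. Hypoxic cultures spent their last 24 h at 1% oxygen under nitrogen, and normoxic cultures were left untreated. FG is known as a fast-growing variant of an older pancreatic line, and L3.6pl as a metastatic line selected in mice from the same lineage. Neither line stands for primary tumour tissue.

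YAP1 is the effector of the Hippo pathway, in which the kinases STK3, STK4, LATS1 and LATS2 keep it out of the nucleus. In the nucleus it binds TEAD factors at genes of growth, adhesion and matrix. BIRC2, a ubiquitin ligase of the inhibitor of apoptosis family, lies close to it, and the YAP1 and BIRC2 region is known to be amplified in some carcinomas. The other members are a mixture of roles, from chromatin and DNA repair to proteases, glycan synthesis, membrane traffic and channels, and they share a position rather than a pathway.

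Values are log2 of the deposited intensity, so a drop by 1 unit is a halving. A gene counts as near background when its mean lies under a log2 intensity of 5.59 in all 4 groups, the 90th percentile of 181 genes of olfactory receptor, keratin-associated, defensin, taste receptor and interferon alpha families. By that rule 36 members were above background and 7 were near it: GRM5, NOX4, FAT3, GPR83, CNTN5, PGR and TRPC6. Of the 36, 30 were above it in both lines and 6 in FG alone (SYTL2, ME3, NAALAD2, PIWIL4, ARHGAP42 and CEP126), and none in L3.6pl alone. Those 6 could pass only by being higher in FG, so counts over the 36 are descriptions and values for all 43 stand beside them. As a summed level from many cells, a lower value cannot be told apart between fewer cells that express a gene and less RNA in each cell.

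The epithelial markers EPCAM, KRT8, KRT18, KRT19 and CDH1 were all well above background in every group. Of 9 measured stromal and blood markers, PTPRC, DCN, LUM and VWF were near background in all groups, and COL1A1, COL3A1, CD3E, HBB and PECAM1 were above it. The summed intensity of the 9 was 998 to 1640 in L3.6pl hypoxia and 774 to 997 in L3.6pl normoxia, against 3772 to 4338 in FG hypoxia and 2447 to 4760 in FG normoxia. COL3A1 averaged 5.69 and 5.60 in L3.6pl hypoxia and normoxia, against 10.63 and 11.02 in FG hypoxia and normoxia. In the same order COL1A1 averaged 9.49 and 8.75 against 10.91 and 9.73. PECAM1 went the other way, at 8.16 and 7.38 against 7.18 and 6.70, as did LUM near background. CD3E (5.74 to 5.86) and HBB (6.49 to 6.66) were alike in all groups, so the markers did not differ in 1 direction. The part of these markers in the difference between the lines was not tested. Arrays of a group correlated at r of 0.974 to 0.996 across genes, with the lowest mean for FG normoxia replicate 1 (0.978) and L3.6pl hypoxia replicate 3 (0.981). These 2 arrays and L3.6pl normoxia replicate 1, named as standing apart in earlier work, were left out together as an alternative.

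L3.6pl cells read lower than FG cells over most of the block, at close to the level that a halving gives. Over all 43 members the median log2 difference was -0.74 in hypoxia and -0.85 in normoxia. In both oxygen states 37 of them (86.0%) were lower in L3.6pl, where 31.6% of all genes were. Over the 36 members above background the median was -1.06 in hypoxia and -0.98 in normoxia, or 50.5% of the FG level for the mean of both states. Over the 32 members whose mean across all arrays exceeded the threshold, the median of both states was -0.99, and 27 were lower in both. The median over all 12625 genes above background was 0.04, and over the other 702 such genes of chromosome 11 it was 0.01. Of the 12625, 32.9% were lower in both states, and of the 702, 34.2%.

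The arrays of the lines did not overlap for 24 of the 43 members (55.8%) in both oxygen states with L3.6pl lower, where 6.61% of all genes do the same. Among the 36 above background the count was 23 (63.9%), where 9.28% of genes above background do. These comparisons chose the block, so nothing is read from the gap between these shares. Averaged over all 43 members, the arrays read 7.34, 7.35 and 7.55 in L3.6pl hypoxia and 7.55, 7.48 and 7.56 in L3.6pl normoxia, against 8.13, 8.25 and 8.35 in FG hypoxia and 8.43, 8.41 and 8.45 in FG normoxia. All 6 L3.6pl arrays lay below all 6 FG arrays. For 33 of the 43 members, those near background included, the differences in hypoxia and normoxia lay within 0.5 of each other. The share of all genes within that range is not given here. The widest gaps were for FUT4 (-2.03 in hypoxia and -3.67 in normoxia) and MAML2 (1.27 in hypoxia and 0.07 in normoxia).

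**Figure D1:**
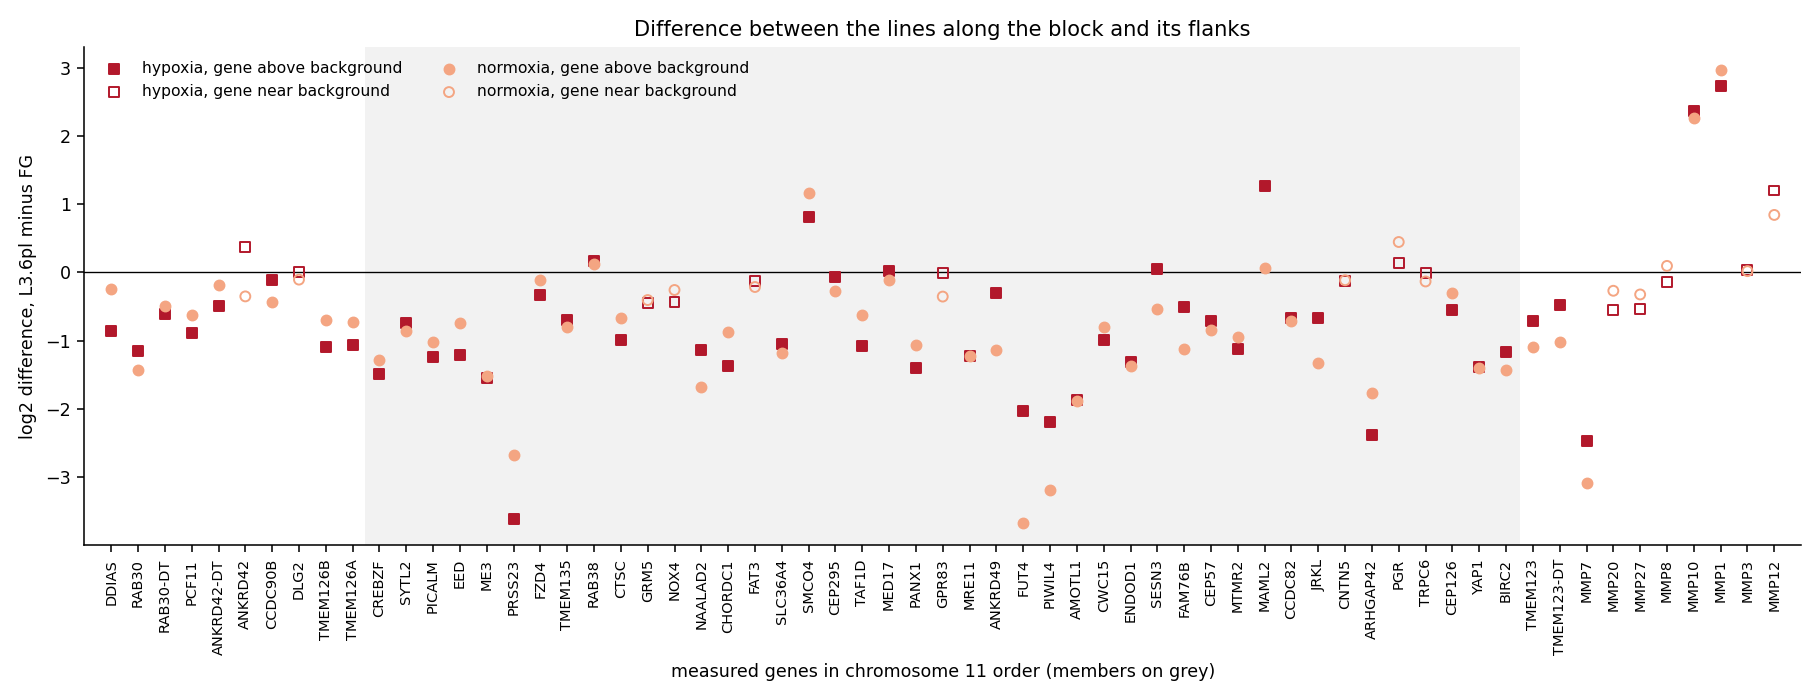
Log2 difference, L3.6pl minus FG, for the 43 members (grey ground) and the 10 measured genes on each side, in the order of chromosome 11; squares are hypoxia, circles normoxia, open symbols genes near background, and each symbol is a difference of means of 3 arrays a group. Most filled symbols on the grey ground lie between 0 and -2, SMCO4 lies above 0, and the flanking genes MMP10 and MMP1 lie above 2.

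The first members are the Hippo pathway genes and the surface proteins near them in function. YAP1 read 11.37, 11.76 and 10.35 in L3.6pl hypoxia and 11.45, 11.21 and 10.75 in L3.6pl normoxia, against 12.45, 12.71 and 12.48 in FG hypoxia and 12.87, 12.56 and 12.20 in FG normoxia. Every L3.6pl array lay below every FG array, although L3.6pl hypoxia replicate 3 was the lowest of all. The log2 difference was -1.39 in hypoxia and -1.40 in normoxia, and L3.6pl held 38.1% of the FG level. The other 2 YAP1 probe sets gave differences of -1.18 and -1.23 for the mean of both states.

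The start of YAP1 is shown because the rest of the account turns on this gene and because hypoxia response elements share a short core. The 250 bases upstream of its RefSeq start (GRCh38.p14, chr11:102110197-102110446, plus strand) were searched on both strands for ACGTG and GCGTG, the core of that element, and matches are in capitals.
YAP1: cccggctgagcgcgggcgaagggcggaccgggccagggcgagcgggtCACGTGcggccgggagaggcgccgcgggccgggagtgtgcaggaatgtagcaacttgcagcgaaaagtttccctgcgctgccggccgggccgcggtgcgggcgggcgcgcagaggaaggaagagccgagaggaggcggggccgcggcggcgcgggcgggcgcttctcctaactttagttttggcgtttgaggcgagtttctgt
The 2 matches overlap in a single run of 6 letters that reads the same on both strands. One of these motifs occurs in 43.2% of 34943 upstream windows of this kind, and in 28 of the 54 windows (51.9%) of the 39 members that have one. A match is a run of letters and was not tested as a binding site.

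AMOTL1, an angiomotin family protein that binds YAP1 at cell junctions, stood lower in L3.6pl as well. It read 6.05, 5.93 and 6.46 in L3.6pl hypoxia and 6.04, 5.94 and 6.35 in L3.6pl normoxia, against 7.99, 8.32 and 7.75 in FG hypoxia and 8.43, 7.62 and 7.93 in FG normoxia. The lines did not overlap, the difference was -1.87 in hypoxia and -1.88 in normoxia, and L3.6pl held 27.2% of the FG level. FZD4, a Frizzled receptor for Wnt ligands and norrin, was at -0.22 for the mean of both states with overlapping arrays. FAT3, an atypical cadherin, was near background in every group.

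BIRC2 closes the block. It read 11.58, 11.79 and 11.68 in L3.6pl hypoxia and 11.58, 11.24 and 11.10 in L3.6pl normoxia, against 12.76, 12.87 and 12.91 in FG hypoxia and 12.86, 12.73 and 12.62 in FG normoxia. The lines were apart in each state, with differences of -1.17 in hypoxia and -1.43 in normoxia. Directly beyond it, TMEM123, a cell surface mucin-like receptor, was at -0.90 for the mean of both states, so the low values do not stop at the last listed gene.

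Among the genes of transcription and chromatin, the values ran from almost no difference to the strongest of the group. CREBZF, a bZIP factor of the ATF and CREB family, is the first gene of the block and read 8.92, 9.00 and 7.77 in L3.6pl hypoxia and 8.21, 8.10 and 8.05 in L3.6pl normoxia, against 9.77, 10.28 and 10.11 in FG hypoxia and 9.46, 9.50 and 9.26 in FG normoxia. The lines did not overlap in either state (-1.49 in hypoxia and -1.29 in normoxia), and L3.6pl hypoxia replicate 3 lay more than 1 unit under the other L3.6pl hypoxia arrays. EED, which reads trimethylated histone H3 in the Polycomb repressive complex PRC2, was at -1.21 in hypoxia and -0.75 in normoxia without overlap. PIWIL4, an Argonaute family protein of the PIWI-interacting RNA pathway, read 4.58, 4.69 and 4.23 in L3.6pl hypoxia and 4.57, 4.58 and 4.53 in L3.6pl normoxia, against 6.49, 7.15 and 6.43 in FG hypoxia and 8.50, 7.42 and 7.31 in FG normoxia. In L3.6pl these values were near background and in FG they were above it, so the difference of -2.69 is against values not above background.

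TAF1D, a subunit of the RNA polymerase I selectivity factor, was at -0.85, and CWC15, a spliceosome protein, at -0.89 for the mean of both states. MAML2, a coactivator of Notch signalling, differed from the rest of the block. Its arrays overlapped in normoxia with a difference of 0.07 and did not overlap in hypoxia with a difference of 1.27, L3.6pl being higher. MED17, a subunit of the Mediator head, was at -0.04 and is the member above background with the smallest difference. Its levels were 9.74, 9.93 and 10.02 in L3.6pl hypoxia and 10.13, 10.18 and 10.20 in L3.6pl normoxia, against 9.85, 9.89 and 9.86 in FG hypoxia and 10.29, 10.21 and 10.36 in FG normoxia.

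Genes of DNA repair and of the centrosome were mostly lower in L3.6pl. MRE11, the nuclease of the complex with RAD50 and NBN that senses double strand breaks, was at -1.23 in hypoxia and -1.23 in normoxia without overlap, which is 42.7% of the FG level. ENDOD1, a nuclease domain protein, read 6.76, 6.74 and 6.93 in L3.6pl hypoxia and 7.82, 7.40 and 7.46 in L3.6pl normoxia, against 7.91, 8.07 and 8.40 in FG hypoxia and 9.51, 8.61 and 8.69 in FG normoxia. The lines were apart in each state, with differences of -1.32 in hypoxia and -1.38 in normoxia. Of the centrosome genes, CEP57 was at -0.78, CEP126 at -0.42 and CEP295 at -0.17 for the mean of both states.

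The proteases and glycan enzymes held the widest differences. PRSS23, a secreted serine protease of the trypsin family, read 8.85, 8.46 and 8.99 in L3.6pl hypoxia and 10.80, 10.05 and 9.93 in L3.6pl normoxia, against 12.25, 12.39 and 12.50 in FG hypoxia and 13.02, 12.76 and 13.02 in FG normoxia. L3.6pl arrays lay more than 1 unit below every FG array, the differences were -3.61 in hypoxia and -2.68 in normoxia, and L3.6pl held 11.3% of the FG level. FUT4, the fucosyltransferase that makes Lewis x type glycans, read 5.38, 5.93 and 5.54 in L3.6pl hypoxia and 5.47, 5.73 and 5.53 in L3.6pl normoxia, against 7.29, 7.68 and 7.96 in FG hypoxia and 9.14, 9.29 and 9.29 in FG normoxia. The lines did not overlap, L3.6pl stayed close to the background threshold and the differences were -2.03 in hypoxia and -3.67 in normoxia.

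Both genes recur in the hypoxia comparison, and the 250 bases upstream of their RefSeq starts are shown for that reason. They come from GRCh38.p14, plus strand, at chr11:94543671-94543920 for FUT4 and at chr11:86790821-86791070 and chr11:86800292-86800541 for the 2 starts of PRSS23. Capitals mark matches to ACGTG or GCGTG on either strand.
FUT4: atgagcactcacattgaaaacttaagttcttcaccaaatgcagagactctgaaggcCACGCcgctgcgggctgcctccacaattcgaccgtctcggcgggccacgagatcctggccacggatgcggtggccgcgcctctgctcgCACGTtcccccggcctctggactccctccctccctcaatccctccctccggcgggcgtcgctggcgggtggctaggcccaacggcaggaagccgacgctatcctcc
PRSS23, first start: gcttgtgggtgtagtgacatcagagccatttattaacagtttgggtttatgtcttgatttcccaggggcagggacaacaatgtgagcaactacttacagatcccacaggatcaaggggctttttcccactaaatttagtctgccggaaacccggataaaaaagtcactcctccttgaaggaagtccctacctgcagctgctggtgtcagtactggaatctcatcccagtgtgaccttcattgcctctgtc
PRSS23, second start: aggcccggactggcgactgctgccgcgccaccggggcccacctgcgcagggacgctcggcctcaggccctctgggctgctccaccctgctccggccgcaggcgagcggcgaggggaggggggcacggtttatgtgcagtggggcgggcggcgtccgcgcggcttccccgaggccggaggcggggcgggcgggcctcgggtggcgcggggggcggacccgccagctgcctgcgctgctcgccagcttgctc
The FUT4 window held 2 matches, and neither PRSS23 window held these letters.

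NAALAD2, a peptidase of the glutamate carboxypeptidase family, read 4.27, 4.27 and 5.12 in L3.6pl hypoxia and 4.91, 4.33 and 4.69 in L3.6pl normoxia, against 5.27, 5.60 and 6.20 in FG hypoxia and 6.25, 6.37 and 6.34 in FG normoxia. It was under the background threshold on every L3.6pl array, and the differences were -1.14 in hypoxia and -1.67 in normoxia. CTSC, the lysosomal protease cathepsin C that activates granule serine proteases in immune cells, was at -0.99 in hypoxia and -0.66 in normoxia without overlap. Its 3 other probe sets gave -0.29, 0.33 and 1.03 for the mean of both states, so the direction for CTSC differed by probe set.

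Membrane traffic and signalling genes split more widely. PICALM, a clathrin adaptor for endocytosis, read 10.48, 10.63 and 10.66 in L3.6pl hypoxia and 10.53, 9.98 and 9.79 in L3.6pl normoxia, against 11.73, 11.91 and 11.84 in FG hypoxia and 11.21, 11.05 and 11.11 in FG normoxia. The lines did not overlap and the differences were -1.24 in hypoxia and -1.02 in normoxia. SYTL2, a Rab27 effector in vesicle docking, was at -0.80 and MTMR2, a phosphoinositide phosphatase, at -1.03 for the mean of both states. RAB38, a small GTPase of melanosome and lamellar body biogenesis, was at 0.14 with overlapping arrays. ARHGAP42, a GTPase-activating protein for RhoA, read 3.54, 3.96 and 4.75 in L3.6pl hypoxia and 4.60, 4.41 and 4.78 in L3.6pl normoxia, against 5.83, 6.75 and 6.82 in FG hypoxia and 6.24, 6.31 and 6.52 in FG normoxia. L3.6pl values were under the background threshold on all 6 arrays, so the difference of -2.07 is against values not above background as well.

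Genes of metabolism and stress differed in how far they lay below FG. ME3, the mitochondrial NADP-dependent malic enzyme, read 5.14, 5.48 and 5.41 in L3.6pl hypoxia and 5.66, 5.39 and 5.71 in L3.6pl normoxia, against 6.55, 6.98 and 7.13 in FG hypoxia and 7.34, 6.80 and 7.17 in FG normoxia. The lines did not overlap and the differences were -1.55 in hypoxia and -1.52 in normoxia. For the mean of both states, TMEM135, a protein of mitochondria and peroxisomes, was at -0.74, the amino acid transporter SLC36A4 at -1.11 and the HSP90 cochaperone CHORDC1 at -1.12. SESN3, a sestrin that restrains mTORC1, was at -0.25 with overlap in both states. Its other probe sets were all lower by more, from -0.93 to -0.39 for the mean of both states. The one nearest in level, at a mean of 9.02, gave -0.70.

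PANX1, a channel that releases ATP, was the one channel of the block well above background. It read 8.04, 8.55 and 8.71 in L3.6pl hypoxia and 8.19, 8.22 and 8.35 in L3.6pl normoxia, against 9.91, 10.06 and 9.52 in FG hypoxia and 9.23, 9.32 and 9.39 in FG normoxia. The lines were apart in each state, with differences of -1.39 in hypoxia and -1.06 in normoxia. The other channels and receptors, TRPC6, GPR83, GRM5 and PGR, the oxidase NOX4 and the contactin CNTN5 were near background, with differences between -0.42 and 0.29.

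Among the members of less settled function, CCDC82 was at -0.69, JRKL at -0.99, ANKRD49 at -0.72 and FAM76B at -0.81 for the mean of both states. SMCO4 stood on the other side. It averaged 9.23 ± 0.611 and 10.11 ± 0.273 in L3.6pl hypoxia and normoxia, against 8.41 ± 0.189 and 8.95 ± 0.506 in FG hypoxia and normoxia (SD, n = 3 arrays each). L3.6pl was above FG without overlap in both states, by 0.81 in hypoxia and 1.16 in normoxia, the only such case among the 43 members, where 8.95% of all genes do the same.

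**Figure D2:**
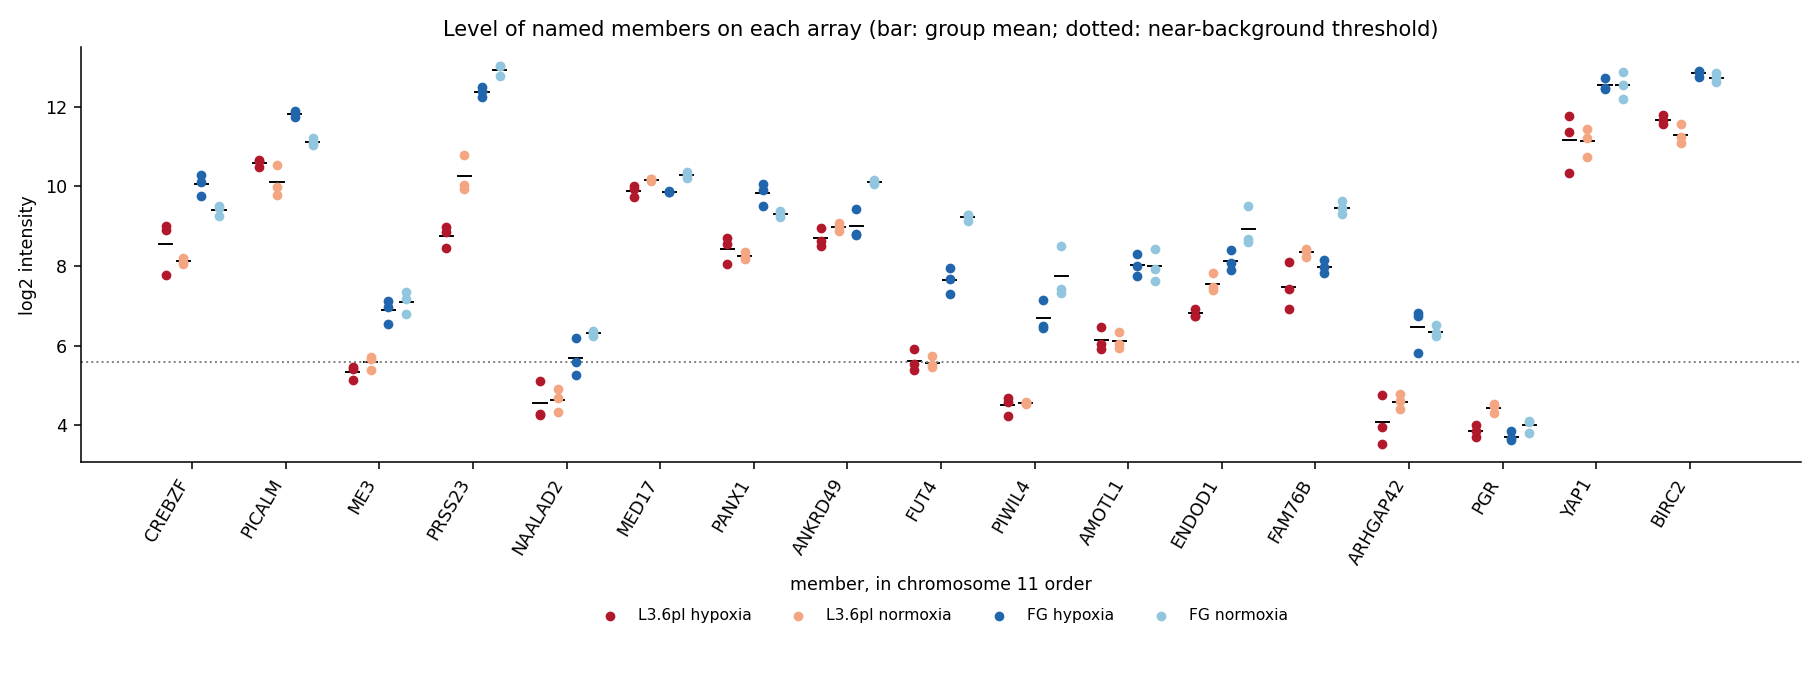
Log2 intensity of 17 members on each of the 12 arrays, in the order of chromosome 11; points are arrays, short bars group means, colours the 4 groups, and the dotted line the near-background threshold of 5.59. For YAP1, BIRC2, PRSS23, FUT4 and AMOTL1 all 6 L3.6pl points lie below all 6 FG points, and for MED17 they overlap.

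Other probe sets of the same genes gave a check of the value used, since the one with the highest mean was taken for each gene. The members above background had 69 further probe sets, of which 46 were above background themselves. In 43 of those 46 the sign was that of the probe set used, with a median of -0.90. The 3 exceptions were 1 MED17 probe set, at 0.02 beside -0.04 for the one used, and 2 of CTSC.

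The low values also held for unlisted genes of the interval and for its near flanks. Of the 20 unlisted genes, 5 were above background, with a median of -0.91: TYR at -1.19, CFAP300 at -1.15, SRSF8 at -0.91, HIKESHI at -0.65 and C11orf54 at -0.11. The other 15 were near background, with a median of -0.04. Directly before CREBZF, TMEM126A and TMEM126B, which serve the assembly of respiratory complex I, were both at -0.90. Further out on that side RAB30 was at -1.29 and CCDC90B at -0.27.

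Beyond TMEM123 the matrix metalloproteinase cluster showed both signs. MMP7 (matrilysin) averaged 5.84 ± 0.656 and 4.54 ± 0.045 in L3.6pl hypoxia and normoxia, against 8.30 ± 0.649 and 7.63 ± 0.251 in FG hypoxia and normoxia (SD, n = 3 arrays each). MMP1 (interstitial collagenase) was at 2.85 and MMP10 (stromelysin 2) at 2.32, both higher in L3.6pl.

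A running median over 15 consecutive genes above background placed the block against the rest of the genome. All 27 windows inside the interval were at or below -0.5, from -1.12 to -0.83, where 342 of 12274 windows in the genome (2.79%) were. The window from TYR to AMOTL1 was the lowest of the 12274. Such low windows were not particular to chromosome 11, which held 81 of them. Chromosome 8 held 76 (lowest -1.08), chromosome 1 held 67 (-0.71), chromosome 13 held 64 (-0.75) and chromosome 12 held 15 (-0.97). The highest window in the genome was at 1.33. The first and the 99th percentiles of all windows were -0.70 and 0.59. An unbroken run of 54 windows at or below -0.5 held the block and stretched from THRSP to CARD16. These windows describe the values that chose the block, and neighbouring windows share genes.

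**Figure D3:**
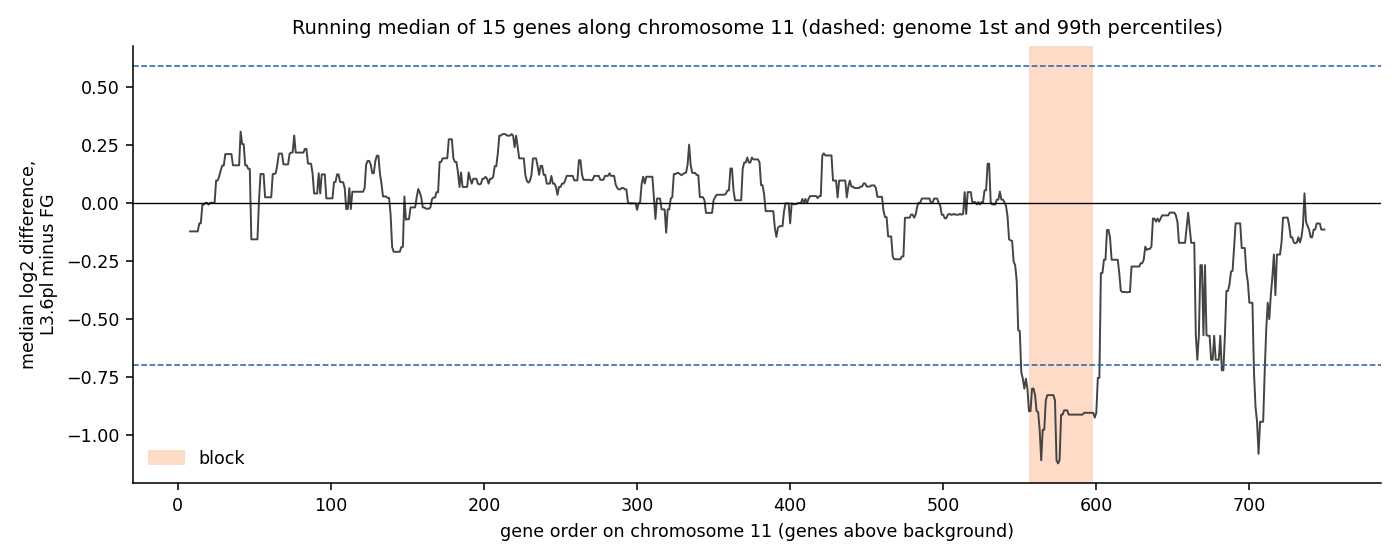
Running median of the log2 difference, L3.6pl minus FG, mean of both oxygen states, over 15 consecutive genes above background along chromosome 11; the shaded band is the block and dashed lines are the genome's first and 99th percentiles (-0.70 and 0.59). The curve is at or below -0.5 in an unbroken run of 54 windows that begins ahead of the block and ends beyond it. It lies between -1.12 and -0.83 for the 27 windows whose genes all lie inside the block. Windows near the edges of the band also take in genes outside it. The curve dips again in shorter stretches towards the end of the chromosome.

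The change with hypoxia was not used to choose the members, so it was tested within each line. The same arrays gave the line differences that chose the block, so these tests are not fully independent of the choice. In FG cells 8 of the 43 members passed a Benjamini-Hochberg adjusted p of 0.05 in limma (18.6%), where 10.7% of all genes did. Of the 8, 7 fell and 1 rose, where 6.47% of all genes fell and 4.24% rose. Among members above background the share was 22.2%, where 16% of genes above background passed. That filter let in 6 members through FG alone, the called PIWIL4 among them, so nothing is read from this share. In L3.6pl cells 2 of the 43 passed (4.65%), both lower in hypoxia, where 6.86% of all genes did and 2.97% fell. The median change over the 43 members was -0.20 in FG and -0.02 in L3.6pl, against -0.03 and -0.02 over all genes.

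Both counts depended on single arrays. The FG count was 5 without any one of FG hypoxia replicates 1 and 2, FG normoxia replicates 2 and 3 and L3.6pl normoxia replicates 2 and 3, where 5.2% to 8.97% of all genes passed. The L3.6pl count was 6 without L3.6pl hypoxia replicate 3, where 12.3% of all genes passed. It was 4 without L3.6pl normoxia replicate 1 (4.69% of all genes) or FG normoxia replicate 1 (9.35%). It was 1 without L3.6pl hypoxia replicate 1 or 2 or L3.6pl normoxia replicate 2 or 3, where 2.57% to 4.31% of all genes passed. Without the 3 arrays that stand apart, 15 of 43 members passed in each line, where 19.6% of all genes passed in FG and 21.1% in L3.6pl.

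By the probe set used for each gene, FUT4 had the largest fall in FG. It read 7.29, 7.68 and 7.96 in hypoxic FG cells, against 9.14, 9.29 and 9.29 in normoxic FG cells, with no overlap. The change was -1.60 ± 0.177 (SE; adjusted p = 0.000523, limma), a 3.03-fold fall, and its second probe set changed by -1.26. In L3.6pl, where the gene was close to background, the change was 0.04 ± 0.177 (SE; adjusted p = 0.936, limma). SESN3 changed by -0.41 in FG by the probe set used and did not pass. Its probe sets at mean levels of 9.02 and 6.42 fell further there, at -1.95 and -1.69. The mean of the SESN3 probe sets passed in FG at -1.02 (adjusted p = 0.0245, limma).

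FAM76B, a nuclear protein of little-known function, read 7.83, 7.98 and 8.15 in hypoxic FG cells, against 9.62, 9.47 and 9.31 in normoxic FG cells, with no overlap and a change of -1.48 ± 0.237 (SE; adjusted p = 0.00333, limma). Its 3 other probe sets, all above background, changed the opposite way, by 1.21, 1.25 and 1.31 in FG and by 0.90 to 0.97 in L3.6pl. The mean of its 4 probe sets was at 0.57 in FG (adjusted p = 0.0301, limma), so no direction is given for the gene as a whole. Which transcripts the probe sets detect was not tested.

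ANKRD49, an ankyrin repeat protein, read 8.77, 8.80 and 9.45 in hypoxic FG cells, against 10.11, 10.17 and 10.07 in normoxic FG cells. The groups did not overlap and the change was -1.11 ± 0.177 (SE; adjusted p = 0.00331, limma). In L3.6pl it was -0.29 ± 0.177 (SE; adjusted p = 0.41, limma). FUT4 and ANKRD49 passed in FG under each of the alternative settings, those without a single array included.

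PIWIL4 read 6.49, 7.15 and 6.43 in hypoxic FG cells, against 8.50, 7.42 and 7.31 in normoxic FG cells, and fell by 1.05 ± 0.291 (SE; adjusted p = 0.0427, limma). The call was lost in 11 of 20 alternative settings (adjusted p up to 0.134), among them without any one of FG hypoxia replicates 1 and 3, FG normoxia replicates 1 and 2, L3.6pl hypoxia replicates 1 and 2 and the 3 L3.6pl normoxia arrays. FG normoxia replicate 1 was more than 1 unit above the other FG normoxia arrays. ENDOD1 fell by 0.81 ± 0.226 in FG (SE; adjusted p = 0.0440, limma) and was at -0.75 ± 0.226 (SE; adjusted p = 0.0765, limma) in L3.6pl. Its FG call was lost in 10 settings (up to 0.147), among them without any one of FG hypoxia replicates 1 and 2, FG normoxia replicates 1 and 3, L3.6pl hypoxia replicates 1 and 2 and L3.6pl normoxia replicates 2 and 3.

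MED17 read 9.85, 9.89 and 9.86 in hypoxic FG cells, against 10.29, 10.21 and 10.36 in normoxic FG cells. The groups did not overlap and the fall of 0.42 ± 0.0887 (SE; adjusted p = 0.0129, limma) was small but held without any single array. Its 2 other probe sets changed by -1.24 and by 1.19, and the mean of its probe sets did not pass (adjusted p = 0.539, limma). CEP295, a centriole elongation protein, fell by 0.47 ± 0.133 in FG (SE; adjusted p = 0.0460, limma), and the call was lost in 12 of 20 settings (up to 0.690), including without any one of FG hypoxia replicates 1 and 2, FG normoxia replicates 2 and 3, L3.6pl hypoxia replicate 1 and the 3 L3.6pl normoxia arrays.

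In the fit as reported, PICALM was the one member whose rise passed in FG, where 18 of the 43 had a positive change. It read 11.73, 11.91 and 11.84 in hypoxic FG cells, against 11.21, 11.05 and 11.11 in normoxic FG cells, with no overlap and a change of 0.70 ± 0.161 (SE; adjusted p = 0.0189, limma), a 1.63-fold rise. Its 4 other probe sets changed by 0.04 to 1.10. It no longer passed without FG hypoxia replicate 2 or without FG normoxia replicate 2 or 3 (adjusted p from 0.0536 to 0.0789). In L3.6pl the change was 0.49 ± 0.161 (SE; adjusted p = 0.101, limma). The L3.6pl rise passed without the 3 arrays that stand apart (adjusted p = 0.00423, limma). It also passed without L3.6pl normoxia replicate 1 (adjusted p = 0.00771) and with array weights (adjusted p = 0.00674). TAF1D rose more in FG, by 0.98 ± 0.314 (SE; adjusted p = 0.0753, limma), but did not pass as reported. It passed in some other settings, among them the replicate block (adjusted p = 0.00256, limma) and array weights (adjusted p = 0.00115, limma). With the mean of all probe sets, rises of EED (1.45, adjusted p = 0.00137), CHORDC1 (0.97, adjusted p = 0.0144) and PANX1 (0.52, adjusted p = 0.0165) passed in FG (limma). PRSS23, MRE11, SESN3 and CCDC82 also passed there, with falls. By the probe set used, EED was at 0.01 and CHORDC1 at 0.02. Their other probe sets, at mean levels of 6.73 and 5.16, rose by 2.90 and 1.92.

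In L3.6pl, PRSS23 fell. It read 8.85, 8.46 and 8.99 in hypoxic L3.6pl cells, against 10.80, 10.05 and 9.93 in normoxic L3.6pl cells, with no overlap. The change was -1.49 ± 0.214 (SE; adjusted p = 0.00272, limma), a 2.82-fold fall that passed under every alternative setting. Of its other probe sets, 2 changed by -1.72 and -0.62 and the third, at a mean level of 5.44, by -0.15. In FG the change of PRSS23 was -0.56 ± 0.214 (SE; adjusted p = 0.137, limma). There the same 2 probe sets fell by more, at -1.13 and -1.20, and the third was at 0.07. The FG fall passed with the mean of all probe sets (adjusted p = 0.0499, limma). It also passed without the 3 arrays that stand apart (adjusted p = 0.0361) and without L3.6pl normoxia replicate 1 (adjusted p = 0.0392).

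The other L3.6pl call was PGR, the progesterone receptor, which read 3.69, 3.86 and 4.01 in hypoxic L3.6pl cells, against 4.31, 4.53 and 4.49 in normoxic L3.6pl cells. All these values lie under the background threshold. Its fall of 0.59 ± 0.122 (SE; adjusted p = 0.0167, limma) was lost with the mean of its 2 probe sets (adjusted p = 0.204) and without L3.6pl hypoxia replicate 1 or 2 or L3.6pl normoxia replicate 2 or 3, where the lowest adjusted p was 0.0638.

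YAP1 itself did not pass in either line, with a change of 0.01 ± 0.322 (SE; adjusted p = 0.995, limma) in FG and 0.02 ± 0.322 (SE; adjusted p = 0.982, limma) in L3.6pl. One of its probe sets, at a mean level of 11.37, was higher in hypoxia by 0.77 in FG and by 1.02 in L3.6pl, while the other 2 stayed between -0.01 and 0.13. BIRC2 was at 0.11 ± 0.127 (SE; adjusted p = 0.695, limma) in FG and at 0.38 ± 0.127 (SE; adjusted p = 0.107, limma) in L3.6pl. The BIRC2 rise in L3.6pl passed without the 3 arrays that stand apart (adjusted p = 0.0149, limma). It also passed without L3.6pl normoxia replicate 1 (adjusted p = 0.0321) and with array weights (adjusted p = 0.00908). AMOTL1 was at 0.03 in FG and 0.04 in L3.6pl, with a standard error of 0.226.

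**Figure D4:**
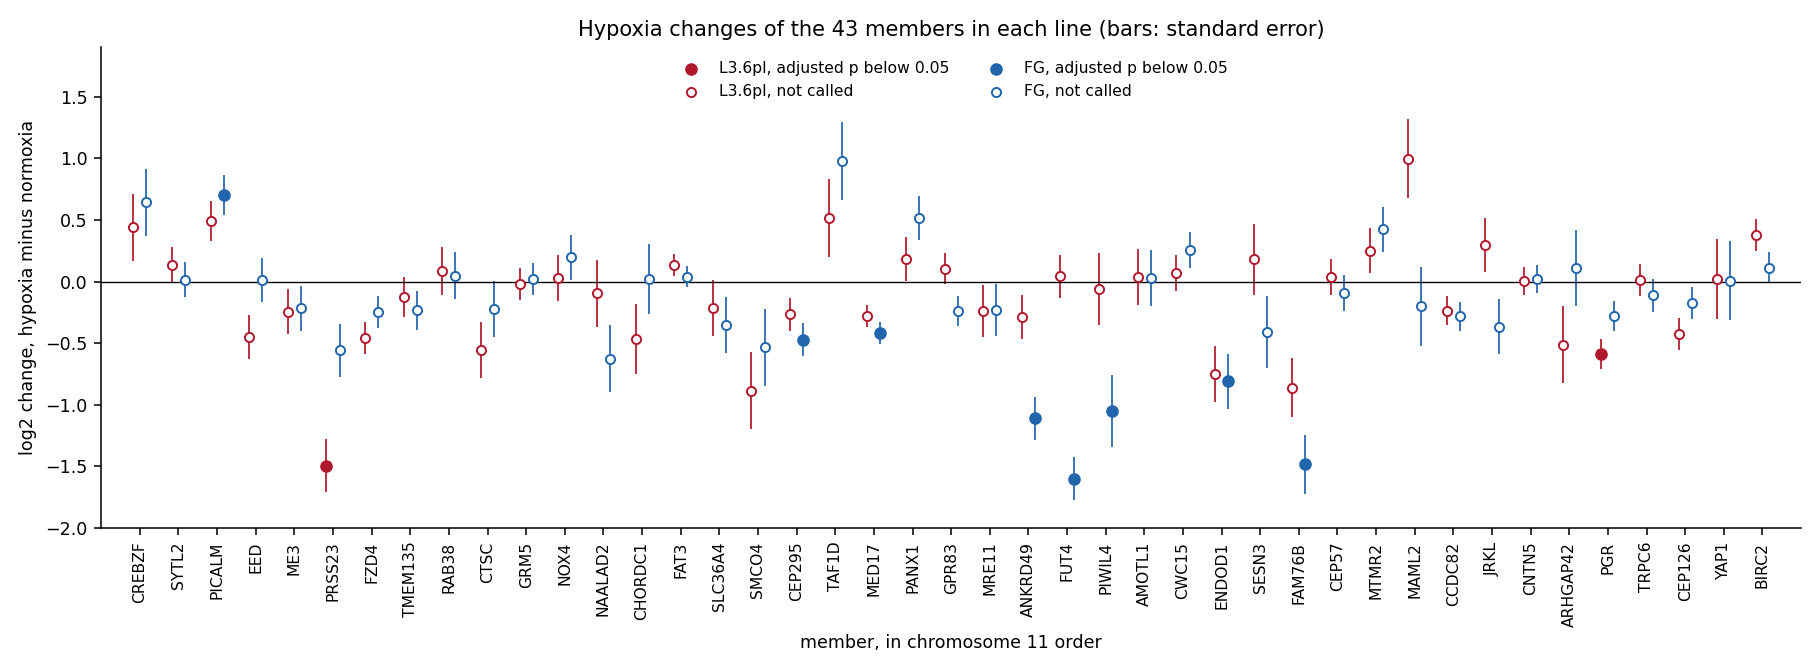
Log2 change, hypoxia minus normoxia, of the 43 members in L3.6pl (red) and FG (blue), in the order of chromosome 11; bars are standard errors from limma and filled points passed an adjusted p of 0.05. FUT4, FAM76B, ANKRD49 and PIWIL4 lie below -1 in FG, PRSS23 lies below -1 in L3.6pl, and PICALM is the filled point above 0.

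Members that share a start region give a closer view of these changes. By their RefSeq starts, 3 pairs of members are transcribed away from each other from starts 139, 231 and 100 bases apart. The DNA between the starts is shown from GRCh38.p14, plus strand, at chr11:94493845-94493983 between MRE11 and ANKRD49, chr11:95789783-95790013 between FAM76B and CEP57, and chr11:96389913-96390012 between CCDC82 and JRKL. Each run starts beside the first gene of the pair, which lies on the minus strand, and capitals mark ACGTG or GCGTG on either strand.
MRE11 and ANKRD49: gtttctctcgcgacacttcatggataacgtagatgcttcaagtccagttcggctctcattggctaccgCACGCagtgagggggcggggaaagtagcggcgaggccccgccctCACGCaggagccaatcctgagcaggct
FAM76B and CEP57: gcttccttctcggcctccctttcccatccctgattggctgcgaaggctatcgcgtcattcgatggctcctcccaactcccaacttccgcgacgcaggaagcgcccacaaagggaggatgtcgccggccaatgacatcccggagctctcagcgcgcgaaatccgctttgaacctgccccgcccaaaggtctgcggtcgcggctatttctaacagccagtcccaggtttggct
CCDC82 and JRKL: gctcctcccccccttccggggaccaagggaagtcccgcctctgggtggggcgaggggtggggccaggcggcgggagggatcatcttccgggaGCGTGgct
The first region held 2 matches, the last held 1 and the FAM76B and CEP57 region held none of these letters.

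All 6 genes averaged lower in L3.6pl, although ANKRD49, FAM76B and JRKL overlapped between the lines in hypoxia. In FG, ANKRD49 passed at -1.11, while MRE11 was at -0.23 ± 0.211 (SE; adjusted p = 0.596, limma). FAM76B passed at -1.48 with the probe set used, while CEP57 was at -0.10 ± 0.146 (SE; adjusted p = 0.782, limma). CCDC82 and JRKL were at -0.28 and -0.37, and neither passed as reported. With the mean of all probe sets, MRE11 (-0.42, adjusted p = 0.0125) and CCDC82 (-0.49, adjusted p = 0.0282) passed in FG (limma). With array weights, MRE11 (adjusted p = 0.0193), CCDC82 (adjusted p = 0.00645) and JRKL (adjusted p = 0.0230) passed (limma), where 29% of all genes did. The contrast within pairs thus depends on the probe sets and the setting. The differences within pairs were not tested.

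**Figure D5:**
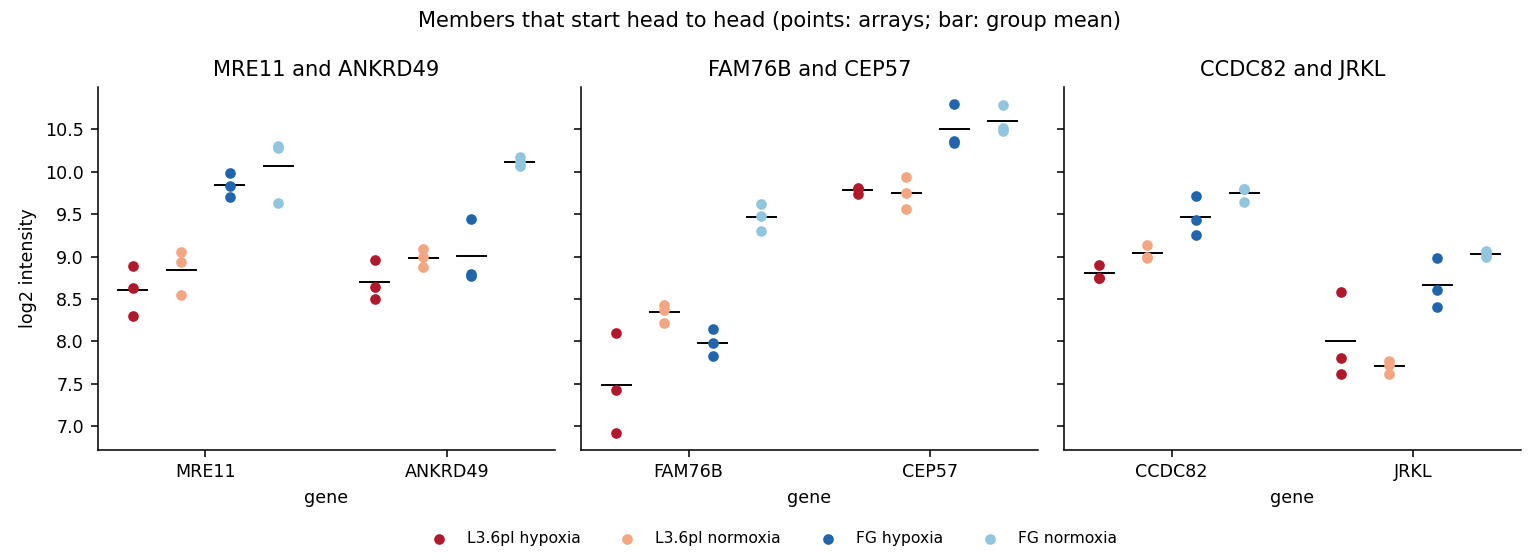
Log2 intensity of the 3 pairs of members that start head to head; points are the 3 arrays of each group and short bars their means. ANKRD49 and FAM76B are higher in normoxic FG cells than in the other 3 groups, and MRE11, CEP57 and CCDC82 separate by line.

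The hypoxia effects of the lines were compared by their interaction, which subtracts the FG effect from the L3.6pl effect. This is also the difference between the 2 line differences that chose the block, so it is not independent of the choice. None of the 43 members passed in limma, where 0.0253% of all genes did. An unadjusted p below 0.05 was reached by 5 members (FUT4, ANKRD49, PRSS23, MAML2 and PIWIL4). The share of all genes at that unadjusted threshold is not given here, so nothing is read from this count. FUT4 came closest at 1.64 ± 0.251 (SE; adjusted p = 0.0628). Same-numbered arrays of the lines deviated together within an oxygen state, and 1 of 43 members passed with the replicate number as a block, FUT4 (adjusted p = 0.0361). With the block set within each oxygen state, a form chosen after the pairing was seen, 3 passed where 3.55% of all genes did: FUT4, ANKRD49 and MAML2.

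The partners of the members lie elsewhere in the genome, and their line differences were tested. Of 79 distinct partner genes measured in 7 lists, 11 were higher and 13 lower in L3.6pl in hypoxia, and 7 higher and 9 lower in normoxia. Of all genes, 16.7% passed in hypoxia (10% higher and 6.72% lower) and 10.7% in normoxia (5.16% higher and 5.54% lower). With the replicate block within each oxygen state, 40 passed in hypoxia and 23 in normoxia, where 30% and 23.1% of all genes did. Without FG normoxia replicate 2 the normoxia count was 9, and without L3.6pl normoxia replicates 1, 2 or 3 it was 10, 8 or 9, where 6.34% to 8.2% of all genes passed.

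Of 18 Hippo genes and YAP1 partners, 1 was higher and 4 lower in hypoxia, and 2 were higher and 4 lower in normoxia. WWC1 (KIBRA), an upstream activator of the LATS kinases, read 6.97, 6.73 and 7.24 in L3.6pl hypoxia and 7.78, 7.75 and 7.78 in L3.6pl normoxia, against 8.88, 9.11 and 9.25 in FG hypoxia and 9.15, 8.73 and 9.06 in FG normoxia. The lines did not overlap, and the difference was -2.10 ± 0.152 (adjusted p = 1.05e-05) in hypoxia and -1.21 ± 0.152 (adjusted p = 0.000537) in normoxia. TEAD2, a DNA-binding partner of YAP1, was lower, at -1.14 ± 0.125 in hypoxia (adjusted p = 0.000157, limma) and -1.17 ± 0.125 in normoxia (adjusted p = 0.00018). WWTR1 (TAZ), the paralogue of YAP1, read 10.08, 10.55 and 10.67 in L3.6pl hypoxia and 10.23, 10.22 and 10.15 in L3.6pl normoxia, against 9.43, 9.38 and 9.49 in FG hypoxia and 9.67, 9.11 and 9.28 in FG normoxia. It was higher in L3.6pl without overlap, by 1.00 ± 0.167 (adjusted p = 0.0021) in hypoxia and 0.85 ± 0.167 (adjusted p = 0.00796) in normoxia. TEAD1 was at -0.04 ± 0.149 (adjusted p = 0.905) in hypoxia and -0.18 ± 0.149 (adjusted p = 0.586) in normoxia, and PTPN14, which binds YAP1 in the cytoplasm, at -0.34 ± 0.397 (adjusted p = 0.664) and -0.71 ± 0.397 (adjusted p = 0.35).

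Known YAP1 target genes, 14 of them measured, had 3 higher and 4 lower in hypoxia and 2 higher and 1 lower in normoxia, with list medians of -0.45 and 0.00. CCN2 (connective tissue growth factor) read 3.89, 4.47 and 3.84 in L3.6pl hypoxia and 3.12, 3.47 and 3.41 in L3.6pl normoxia, against 6.91, 6.93 and 7.32 in FG hypoxia and 3.85, 4.17 and 5.42 in FG normoxia. It was lower in L3.6pl, at -2.99 ± 0.341 (adjusted p = 0.00021) in hypoxia. All 6 L3.6pl values and the 3 of FG normoxia lie under the background threshold of 5.59, so the hypoxia difference is against values not above background and none is given for normoxia. AXL, a receptor tyrosine kinase, was higher in L3.6pl by 2.19 ± 0.307 (adjusted p = 0.000718) in hypoxia and 1.21 ± 0.307 (adjusted p = 0.0294) in normoxia. The AXL call in normoxia was lost without any one of FG normoxia replicates 1 and 2 and L3.6pl normoxia replicates 2 and 3 (adjusted p up to 0.106). The targets that passed thus differed in both directions between the lines.

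The 5 other lists held 7 to 13 measured genes each. Of 7 measured MRE11 partners and double strand break genes, 1 was higher and 1 lower in hypoxia and 1 lower in normoxia. NBN, partner of MRE11, was lower, at -1.08 ± 0.165 (adjusted p = 0.00123) in hypoxia and -0.88 ± 0.165 (adjusted p = 0.00596) in normoxia, and RAD50, the other partner, was higher by 0.96 ± 0.119 (adjusted p = 0.000333) in hypoxia and at 0.20 ± 0.119 (adjusted p = 0.378) in normoxia. Of 10 PRC2 subunits other than EED, 1 was higher and 1 lower in hypoxia and 1 higher in normoxia. PHF1 was higher by 0.96 ± 0.159 (adjusted p = 0.002) in hypoxia, and EZH2, the methyltransferase, was lower, at -0.87 ± 0.232 (adjusted p = 0.0255), a call lost without FG hypoxia replicate 1 or 2 or L3.6pl hypoxia replicate 2 or 3 (adjusted p up to 0.0968). Of 10 Mediator subunits, 1 was higher and 2 lower in hypoxia and 2 lower in normoxia. MED21 was lower, at -2.19 ± 0.282 (adjusted p = 0.000419), and MED4 lower, at -0.85 ± 0.193 (adjusted p = 0.0125), both in hypoxia, the MED4 call being lost with the mean of all probe sets (adjusted p = 0.0766). MED14 was higher in hypoxia by 0.41 ± 0.116 (adjusted p = 0.0356), a call lost without any one FG hypoxia array, L3.6pl hypoxia replicate 1 or 2 or L3.6pl normoxia replicate 2 (up to 0.189). Of 9 inhibitor of apoptosis and TNF receptor adaptor genes, TRAF3 was the single one to pass, at 0.80 ± 0.216 (adjusted p = 0.0271) in hypoxia, and it did not pass without any one FG hypoxia array or L3.6pl hypoxia replicate 2 (up to 0.0992). Of 13 Wnt receptors, 3 were higher and 2 lower in hypoxia, and 2 higher and 2 lower in normoxia. FZD6 was lower, at -1.97 ± 0.184 (adjusted p = 5.97e-05) in hypoxia and -2.38 ± 0.184 (adjusted p = 2.05e-05) in normoxia, FZD10 was lower, at -2.03 ± 0.235 (adjusted p = 0.000225) and -1.56 ± 0.235 (adjusted p = 0.00169), and RYK was higher by 0.74 ± 0.108 (adjusted p = 0.000866) in hypoxia. The other 2 that were higher in hypoxia, named after their values were seen, were FZD7, by 1.55 ± 0.265 (adjusted p = 0.00248), and FZD1, whose call (adjusted p = 0.0429) was lost in 10 of 21 settings (up to 0.155), among them without any one of FG hypoxia replicates 1 and 2, FG normoxia replicates 2 and 3, L3.6pl hypoxia replicates 2 and 3 and L3.6pl normoxia replicate 3.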

How the data were processed

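RNA from cultured L3.6pl and FG cells was hybridised to 12 arrays, 3 a group. RMA, named without a version in the submitters' processing notes, gave the linear intensity values that the authors deposited. The labels do not say whether replicates were separate cultures, so p-values measure the spread between these arrays, whose number limits the precision. Log2 of each intensity was taken here. Of 54675 probe sets, 62 were controls, 41091 had exactly 1 gene in the platform annotation, 1801 had several and 11721 had none. The probe set with the highest mean stood for each gene, which gave 19775 genes. Current symbols came from a gene table of GRCh38.p14, and upstream sequences are RefSeq's for that build. Of 43 measured members, 39 had an upstream window.

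Group means were fitted to all arrays together in limma 3.58.1 (R 4.3.3; 8 residual and 2.72 prior degrees of freedom), with Benjamini-Hochberg adjustment over all genes and a threshold of 0.05, and the fit was tested on simulated data. With 3 arrays a group, the smallest two-sided p of an exact test is 0.1. Given array by array are the 12 members with the largest line difference, YAP1, both end members and those called in hypoxia. From partner lists, up to 3 called genes with the smallest p and up to 2 others with the highest mean were eligible, and some are left out. The members, lists and arrays named as standing apart were chosen with earlier results of these data known.

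Same-numbered arrays of the lines deviated together (r of 0.616 to 0.777 in normoxia and 0.385 to 0.509 in hypoxia, against at most 0.315 and 0.201 for different numbers), so the numbers pair the lines. Between oxygen states they did not (r from -0.24 to 0.45). Alternatives were cyclic loess, centring on the array median, the mean of all probe sets, leaving out genes near background, each array or the 3 that stand apart, the replicate block, moderation with an intensity trend, and array weights.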

Additional observations from a re-analysis of the deposited data

Results flagged for a closer look

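The hypoxia effect differed between the lines for 3 members when the replicate number was a block within each oxygen state, and for none in the fit as reported, which has no block. This contrast is the difference between the line differences that chose the block of genes, so it is not independent of that choice. FUT4 was at 1.64 for the L3.6pl effect with the FG effect subtracted (adjusted p = 0.0088 with that block and 0.0628 without, limma). It passed also with array weights (adjusted p = 0.00444) and without FG hypoxia replicate 3 (adjusted p = 0.0483). FUT4 averaged 5.62 in hypoxic and 5.57 in normoxic L3.6pl cells, at the background threshold of 5.59. Whether a fall like that in FG could be read from such a level was not tested, so the FUT4 contrast carries this limit. ANKRD49 was at 0.82 (adjusted p = 0.0267 and 0.394), and passed also with array weights (adjusted p = 0.0333). MAML2 was at 1.20 (adjusted p = 0.0207 and 0.552). MAML2, the Notch coactivator, changed by 1.00 ± 0.318 with hypoxia in L3.6pl (SE; adjusted p = 0.0924) and by -0.20 ± 0.318 in FG (adjusted p = 0.792). Groups of 3 arrays are too small for a search for outlying arrays.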

How the results depend on the processing

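Of 50 results on single genes, 25 kept their call in each of up to 21 settings, 12 of which leave out 1 array. The count of members called in FG, 8 as reported, was 13 with the mean of all probe sets (where 11% of all genes passed), 15 without the 3 arrays that stand apart (19.6%), 5 with an intensity trend (9.73%), 19 with array weights (29%) and 5 to 10 leaving out 1 array (5.2% to 14.7%), against 10.7% of all genes as reported. The L3.6pl count, 2 as reported, was 15 without those 3 arrays (21.1% of all genes), 6 with the replicate block (10.8%), 18 with array weights (26.3%) and 1 to 6 leaving out 1 array (2.57% to 12.3%), against 6.86% as reported. The interaction count of 0 became 1 with the replicate block (0.0657% of all genes), 2 with array weights (2.13%), 3 with the block within each oxygen state (3.55%) and 0 to 1 leaving out 1 array, the 1 being without FG hypoxia replicate 3. Partner genes called in normoxia, 16 as reported, were 31 with array weights (33.5% of all genes) and 8 to 18 leaving out 1 array (6.34% to 13.3%), against 10.7%. In hypoxia 24 were called, 40 with the block within each oxygen state (30% of all genes) and 17 to 29 leaving out 1 array (10.8% to 19.3%), against 16.7%. The median line difference of members above background was -0.82 in hypoxia and -0.83 in normoxia with the mean of all probe sets, and -1.10 to -0.98 in hypoxia and -1.08 to -0.96 in normoxia leaving out 1 array. FAM76B in FG reversed to 0.57 with the mean of all probe sets, 3 of which changed the opposite way to the one used. Apart from that set of probe sets, the cause of these shifts was not tested. The number of arrays and the floor of the array limit members near background.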
